A study of Sus scrofa with 15 samples.

Results

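m6A readers are the proteins that bind N6-methyladenosine in mRNA and carry out its effects. Their genes were followed here in the RNA-seq input libraries of piglet liver. The set was chosen by name: YTHDF1, YTHDF2, YTHDF3, YTHDC1, YTHDC2, IGF2BP2, IGF2BP3, HNRNPA2B1, HNRNPC and FMR1. Of these 10 genes, 9 were paired by pig Ensembl symbol with a row among the 31908 genes of the count table. HNRNPC was not paired with a row and was not analysed here. All 9 genes with a row passed the filter on low counts, as did 12774 genes in all.

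The animals were male piglets of a Duroc x Large White x Landrace cross in the growing stage, with no other treatment in either group. Livers were collected 4 h after an intraperitoneal injection, which was lipopolysaccharide (LPS, a cell wall component of Gram-negative bacteria) at 80 μg/kg for the LPS group and sterile saline in matching amount for the CON group. Each group gave 3 input libraries, that is, polyadenylated and sonicated RNA of whole liver kept back before the m6A antibody was added. Each group held 6 piglets, and the sources used here do not say which animals gave the libraries or whether RNA was pooled, so the p-values measure only the spread between these libraries, which may be technical.

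The 3 YTHDF proteins are cytoplasmic and recognise the methyl group with a YTH domain. YTHDF2 is best known for handing methylated mRNA to the CCR4-NOT deadenylase, and YTHDF1 for promoting translation. YTHDC1 is the nuclear YTH protein, linked to splicing and export, and YTHDC2 is an RNA helicase with a YTH domain that is best known from germ cells. IGF2BP2 and IGF2BP3 bind through KH domains and are described as stabilizing methylated mRNA. HNRNPA2B1 is an abundant nuclear RNA-binding protein that responds to m6A, partly through the RNA structure that the mark opens. FMR1 encodes the fragile X protein, a translational regulator that also binds methylated mRNA. In the liver and its macrophages these proteins are studied because many cytokine and metabolic mRNAs carry the mark.

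The CON and LPS libraries differed in depth. Totals lay between 5927348 and 10351491 counts for CON and between 4348478 and 19967417 for LPS, and the 9 reader genes together held from 2804 to 15366 of these counts. LPS replicate 2 was more like the CON libraries than like the other LPS libraries. Its log2 levels over the tested genes correlated at 0.923 to 0.945 with the CON libraries. With LPS replicates 1 and 3 the values were 0.907 and 0.853. LPS replicates 1 and 3 correlated at 0.903 with each other, so the 3 LPS libraries did not form a close pair and 1 outlier. The tissue label was checked against 14 hepatocyte markers, of which 13 were tested, and albumin (ALB) stood between 12381 and 38011 CPM in every library. CPM are counts relative to the TMM-scaled size of the library. Gene positions are those of the deposited table, whose pig genome build the sources used here do not state. In a bulk sample, fewer cells of a type and less RNA per cell cannot be told apart.

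The 9 readers stood at very different levels in the liver. Levels of different genes were compared as CPM per kilobase of the exon length given in the table. In the CON group HNRNPA2B1 was the most abundant, with 75.5 ± 28.7 CPM per kilobase (mean ± SD, n = 3), above 96.5% of the tested genes. YTHDC1 followed with 29.6 ± 5.8 and YTHDF1 with 7.91 ± 2.43 CPM per kilobase. The ranges of these 3 genes over the CON libraries did not overlap. FMR1 (3.94 ± 1.59), YTHDF2 (3.66 ± 0.47), YTHDF3 (3.41 ± 0.97) and IGF2BP3 (2.41 ± 0.43) came next in CPM per kilobase, and each of them overlapped with its neighbour in this order. YTHDC2, with 1.22 ± 0.10 CPM per kilobase, and IGF2BP2, with 0.876 ± 0.166, were the lowest, and IGF2BP2 exceeded 18.4% of the tested genes. Their ranges over the CON libraries overlapped neither with each other nor with that of IGF2BP3.

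In the LPS group the first 3 places were the same, with 81.4 ± 32.5 CPM per kilobase for HNRNPA2B1, 33.0 ± 9.6 for YTHDC1 and 11.7 ± 3.4 for YTHDF1. YTHDF2 (4.70 ± 1.22), YTHDF3 (3.62 ± 1.09) and FMR1 (3.35 ± 0.74) came next and overlapped with each other. Below FMR1 and apart from it, the range of IGF2BP2 (0.931 ± 0.562) overlapped with those of IGF2BP3 (1.69 ± 0.23) and YTHDC2 (0.753 ± 0.393). IGF2BP3 and YTHDC2 did not overlap with each other in this group. The order of FMR1, YTHDF2 and YTHDF3 was therefore not resolved in either group. Nor was the place of IGF2BP3 beside FMR1 and YTHDF3 in the CON group, or that of IGF2BP2 beside IGF2BP3 and YTHDC2 in the LPS group. The per-length values also rest on annotated lengths that differ widely, from 3528 bases for YTHDF1 to 10690 bases for YTHDF2.

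**Figure D1:**
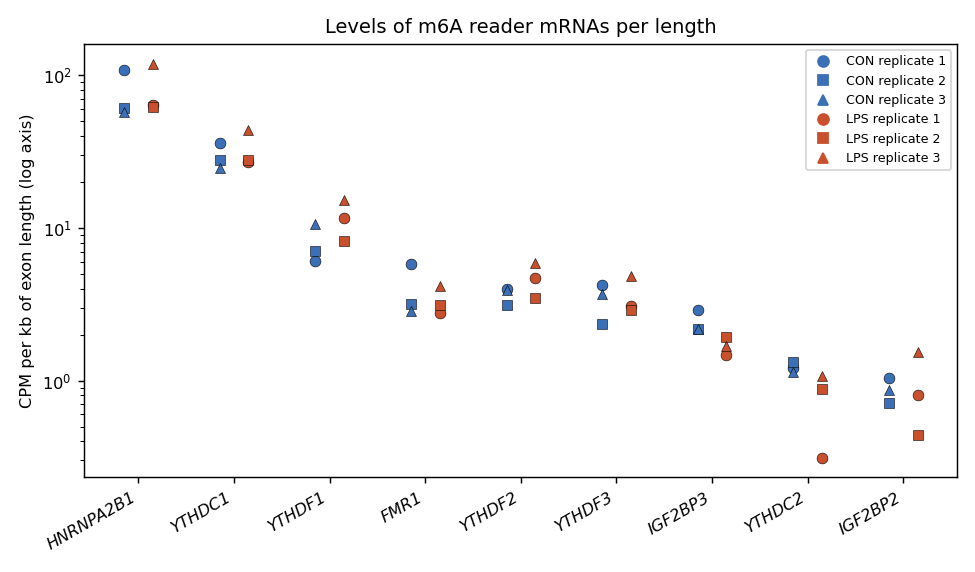
Level of each m6A reader mRNA as CPM per kilobase of exon length (log axis), with 1 point per library in the CON group (blue) and the LPS group (red) and 1 symbol shape per replicate number. HNRNPA2B1, YTHDC1 and YTHDF1 lie above the other 6 genes in the mean of both groups, and the 2 groups of points of most genes lie over each other.

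None of the 9 reader genes was called different between the LPS and CON groups. The question was whether the liver carries more or less reader mRNA at 4 h after LPS. A gene was called when the Benjamini-Hochberg adjusted p of edgeR's quasi-likelihood test, taken over all tested genes, was below 0.05 and the fold change exceeded 1.5. By this rule 0.0548% of the tested genes were called, 7 genes that were all higher in the LPS group. Before adjustment, 12.5% of the tested genes had a p below 0.05, but 0 of the 9 readers did. With DESeq2, which called 2.98% of its tested genes, and with limma-voom, which called 0.047%, the readers called were also 0. Of the 9 log2 fold changes 6 were above 0 and 3 below 0, with a median of 0.11, beside 0.01 for all tested genes. Scaling to total counts moved the median of all tested genes to -0.12 and that of the readers to -0.10, with 2 readers above 0 and 7 below 0, so the sign of the small differences depends on the scaling. Relative to the median of all tested genes, the readers' median was 0.10 with TMM and 0.02 with total counts.

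The intervals show how large a difference these libraries leave possible. For the reader with the narrowest interval on the log2 scale, YTHDF2, the 95% interval of the fold change ran from 0.798 to 2.08. For the widest on that scale, YTHDC2 and IGF2BP2, it ran from 0.316 to 1.26 and from 0.519 to 2.25. A p that misses the threshold here does not show equal expression.

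**Figure D2:**
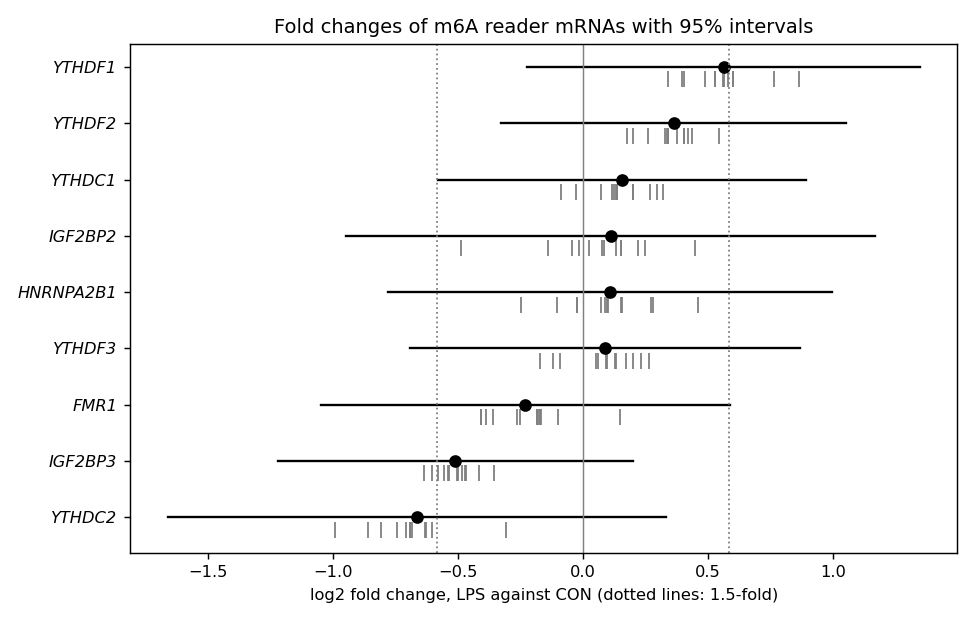
Log2 fold change (LPS against CON, x axis) of each m6A reader mRNA, with the edgeR estimate as a black point and its 95% interval as a line. Grey ticks below each line are the estimates under the 13 alternative settings, and dotted lines mark a fold of 1.5. Every interval includes 0, and the ticks of YTHDF1 and YTHDF2 lie above 0 and those of IGF2BP3 and YTHDC2 below 0.

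Of the 3 YTHDF genes, YTHDF1 had the largest log2 fold change. YTHDF1 (ENSSSCG00000040086, located on chromosome 17 at 62329302 to 62341509) reached 21.3, 24.8 and 37.6 CPM in CON replicates 1, 2 and 3. The LPS replicates had 41.0, 29.1 and 53.4 CPM. LPS replicates 1 and 3 lay above all CON libraries, while LPS replicate 2 lay below the highest of them, so the groups overlapped. The log2 fold change was 0.56 (SE 0.35, edgeR adjusted p = 0.546), and an exact two-sided permutation test over the 6 libraries gave p = 0.2, where 0.1 is the smallest value that 3 against 3 libraries allow. Without LPS replicate 2, when edgeR called 7.2% of the tested genes, the log2 fold change of YTHDF1 was 0.76 with an adjusted p of 0.223.

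YTHDF2 (ENSSSCG00000027686, located on chromosome 6 at 85716917 to 85751583), the decay-promoting reader, stood at 42.4, 33.3 and 41.6 CPM in CON against 50.4, 37.1 and 63.3 CPM in LPS replicates 1 to 3. It showed the same arrangement as YTHDF1, with LPS replicates 1 and 3 above the CON range and LPS replicate 2 inside it. Its log2 fold change of 0.36 (SE 0.31, edgeR adjusted p = 0.669) became 0.54, with an adjusted p of 0.341, when LPS replicate 2 was left out.

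YTHDF3 (ENSSSCG00000033144, located on chromosome 4 at 70887103 to 70928808), which is thought to work together with the other two, was found at 38.4, 21.2 and 33.4 CPM in CON and at 28.1, 26.3 and 44.3 CPM in LPS replicates 1 to 3. Here only LPS replicate 3 exceeded the CON range. A log2 fold change of 0.09 (SE 0.35, edgeR adjusted p = 0.944) resulted, which was -0.17 when LPS replicate 3 was left out.

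**Figure D3:**
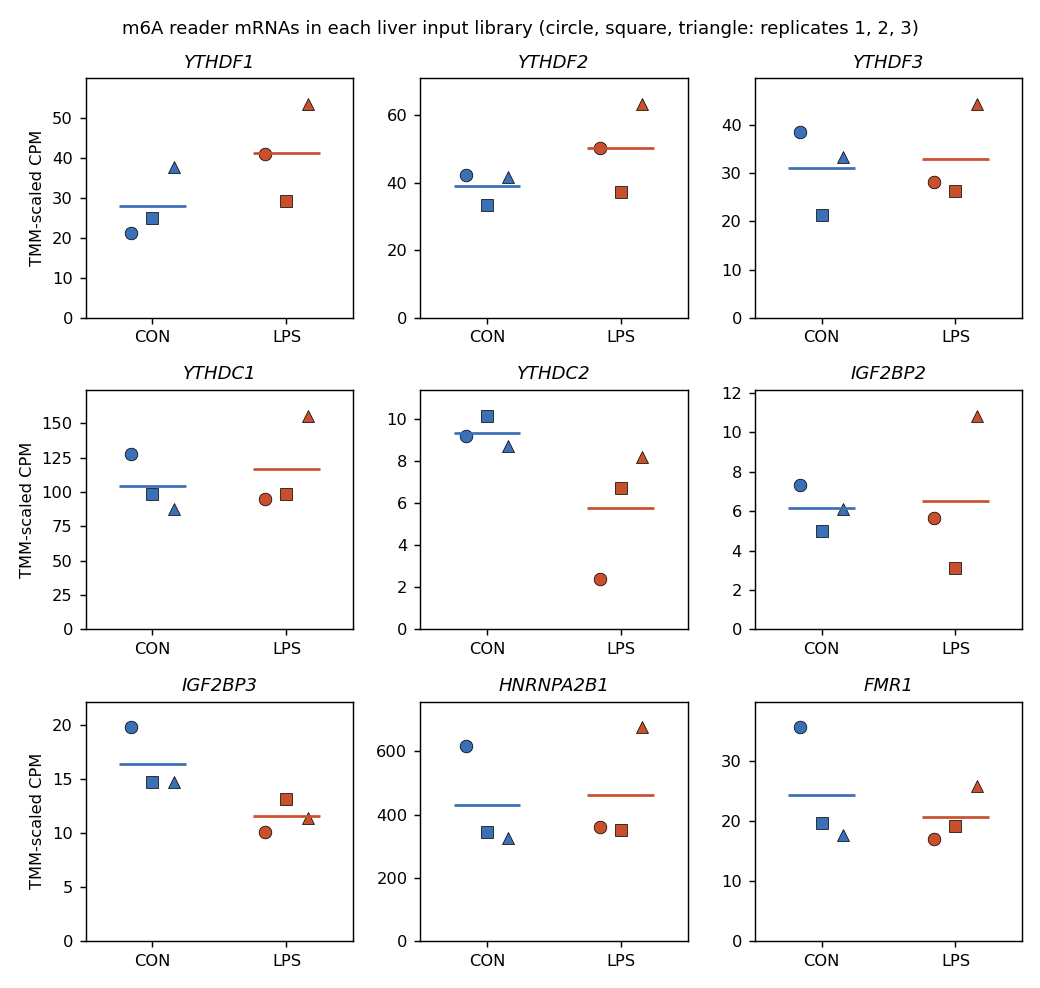
TMM-scaled CPM (y axis) of each m6A reader mRNA in the 3 CON (blue) and 3 LPS (red) libraries. Circles, squares and triangles are replicates 1, 2 and 3, and horizontal lines are group means. LPS replicate 3 is the highest library for 6 of the 9 genes, a count that was not computed over all tested genes. The groups do not overlap for YTHDC2 and IGF2BP3 only.

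The YTHDF paralogs were also compared within each library, where a share does not depend on library scaling. YTHDF1 held 20.8% of the summed counts of the 3 genes in CON replicate 1 (exact 95% binomial interval 18.5% to 23.3%, for counting error only). In the other 5 libraries its share of counts lay between 31.3% and 34.3%. YTHDF3 was the counterpart, with 37.7% of the counts in CON replicate 1 and 23.5% to 29.7% in the others. CON replicate 1 thus stood apart from both groups in the makeup of the family.

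Per kilobase, YTHDF1 made up 52.4 ± 8.7% of the CON and 58.2 ± 1.7% of the LPS family total (mean ± SD, n = 3, exact permutation p = 0.4). YTHDF2 made up 24.7 ± 3.3% and 23.6 ± 0.7% (n = 3, exact permutation p = 0.7). The difference for YTHDF2 was -1.11 percentage points per kilobase and 0.39 on raw counts, so it took opposite signs on the 2 bases. YTHDF3 made up 22.9 ± 6.0% and 18.2 ± 2.0% (n = 3, exact permutation p = 0.3). Reads from stretches that the paralogs have in common could be counted for any of them, and the sources used here do not say how such reads were counted.

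**Figure D4:**
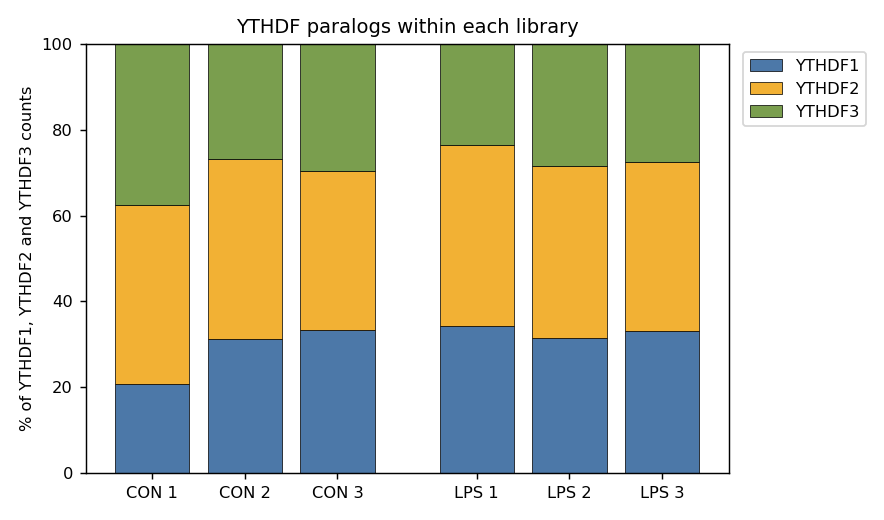
Share (y axis, percent) of YTHDF1, YTHDF2 and YTHDF3 in their summed raw counts in each library (x axis). The bar of CON replicate 1 has the smallest YTHDF1 share, 20.8%, and the largest YTHDF3 share, 37.7%, while the YTHDF1 share is 31.3% to 34.3% in the other 5 bars.

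The nuclear reader YTHDC1 (ENSSSCG00000035505, located on chromosome 8 at 65999525 to 66122711) had CON levels of 127, 98.4 and 87.6 CPM and LPS levels of 95.1, 98.8 and 155 CPM in replicates 1 to 3. LPS replicates 1 and 2 lay within the CON range and LPS replicate 3 above it. Its log2 fold change was 0.16 (SE 0.33, edgeR adjusted p = 0.880), and -0.09 without LPS replicate 3.

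HNRNPA2B1 (ENSSSCG00000036350, located on chromosome 18 at 46205418 to 46215858) supplied between 56.9% and 67.2% of all reader counts in each library. Its values were 618, 344 and 326 CPM in CON and 362, 351 and 676 CPM in LPS replicates 1 to 3. CON replicate 1 and LPS replicate 3 were far above the remaining 4 libraries, so that 1 high library in each group raised the mean. The estimated log2 fold change was 0.11 (SE 0.40, edgeR adjusted p = 0.938), with 0.46 without CON replicate 1 and -0.25 without LPS replicate 3. LPS replicate 3 had the TMM factor farthest from 1, at 0.735, and scaled to total counts its HNRNPA2B1 level was 496 CPM, still the second highest after CON replicate 1 with 670.

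Over the 6 libraries, the log2 CPM of YTHDC1 and HNRNPA2B1 had the highest Pearson correlation of all pairs of readers, 0.968. The lowest was that of YTHDF1 and IGF2BP3, at -0.799. The points of each pair share their libraries and scaling, and these values are given as a description.

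The groups did not overlap for YTHDC2 and IGF2BP3, with every LPS library below every CON library. These are 2 of the 9 readers, 22.2%, where 9.8% of all tested genes were separated in this direction and 16.3% in either direction. Neither gene passed edgeR's threshold. YTHDC2 (ENSSSCG00000014211, located on chromosome 2 at 117871336 to 118104508) gave 9.21, 10.2 and 8.70 CPM in CON and 2.40, 6.71 and 8.19 CPM in LPS replicates 1 to 3. LPS replicate 1 was by far the lowest, and LPS replicate 3 came close to the lowest CON library. For YTHDC2 the log2 fold change was -0.66 (SE 0.45, edgeR adjusted p = 0.578), and the exact permutation p was 0.1, the smallest possible. Groups of 3 that do not overlap always give this value, so it adds nothing to the separation, here or for IGF2BP3.

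The low value of YTHDC2 in LPS replicate 1 rested on 11 counts, with an exact 95% Poisson interval from 1.197 to 4.29 CPM. That interval lies below the intervals of all 3 CON libraries, of which the lowest bound was 6.98 CPM. The intervals of LPS replicate 2, from 4.81 to 9.10 CPM, and of LPS replicate 3, from 6.79 to 9.80 CPM, overlap with those of the CON libraries. Without LPS replicate 1 the log2 fold change was -0.31. A gene with no symbol in the table used here, ENSSSCG00000034993, lies on the same strand across part of YTHDC2, on chromosome 2 from 117838657 to 117908590. It had means of 5.32 CPM in the CON group and 2.00 CPM in the LPS group, so reads of this pair are uncertain.

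IGF2BP3 (ENSSSCG00000036695, located on chromosome 9 at 92104847 to 92272211), a gene best known from fetal tissue and tumours, showed 19.8, 14.7 and 14.7 CPM in CON replicates 1 to 3. The LPS replicates had 10.03, 13.1 and 11.4 CPM. The gap between the groups was small beside the distance of CON replicate 1 from the other CON libraries. The exact 95% Poisson intervals of LPS replicates 1 to 3 reached up to 13.4, 16.3 and 13.3 CPM. All of them overlapped with those of CON replicates 2 and 3, which began at 11.9 and 12.5 CPM. Only the interval of CON replicate 1, from 17.2 to 22.5 CPM, lay above them. The log2 fold change of IGF2BP3 was -0.51 (SE 0.32, edgeR adjusted p = 0.547, exact permutation p = 0.1), and it lay between -0.63 and -0.36 under all 13 alternatives. In the table IGF2BP3 overlaps with GPNMB and MALSU1, both on the opposite strand. GPNMB, a glycoprotein gene of macrophages, had means of 24.3 and 14.6 CPM in the CON and LPS groups, and MALSU1, which encodes a mitochondrial ribosome assembly factor, 23.3 and 32.7 CPM. The library kit was directional, but the sources used here do not say whether the counting used strand.

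Some lists of cell markers had mostly negative log2 fold changes, like these 2 readers. Of the 11 tested Kupffer cell and macrophage markers 11 were below 0, with a summed level of 2012 to 3261 CPM in the CON libraries and 1376 to 2316 CPM in the LPS libraries. The T and NK cell markers had 7 of 8 below 0, with 143 to 177 CPM in the CON libraries and 72.2 to 150 CPM in the LPS libraries. The B and plasma cell markers had 5 of 6 below 0 and the endothelial markers 6 of 7, with overlapping summed levels. No marker with a row was at 0 in all libraries. LPS replicate 1 had the lowest summed level of the Kupffer cell and of the T and NK cell markers, 1376 and 72.2 CPM, as it had the lowest YTHDC2 and IGF2BP3 levels. It was also the lowest library for the hepatocyte (69505 CPM), B and plasma cell (17.2 CPM) and endothelial (208 CPM) markers. The neutrophil, the stellate cell and cholangiocyte, and the red blood cell and platelet markers were lowest in other libraries. The part of these cells in the reader values was not tested.

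IGF2BP2 (ENSSSCG00000011795, located on chromosome 13 at 123485624 to 123650039), which is widely expressed in adult tissue, measured 7.33, 5.00 and 6.13 CPM in CON and 5.67, 3.11 and 10.9 CPM in LPS replicates 1 to 3. LPS replicate 2 lay below the CON range, LPS replicate 3 above it and LPS replicate 1 inside it. Its log2 fold change was 0.11 (SE 0.47, edgeR adjusted p = 0.949), the reader with the largest standard error, and it was -0.49 without LPS replicate 3. LPS replicate 2 had 19 counts of this gene, with an exact 95% Poisson interval from 1.87 to 4.85 CPM, and LPS replicate 3 had 159, with an interval from 9.23 to 12.7 CPM. The distance between those LPS libraries therefore exceeds counting error. The third family member, IGF2BP1, had no count in any CON library and 0.218, 0 and 0.273 CPM in LPS replicates 1 to 3. It was near 0 in both groups and did not pass the filter.

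FMR1 (ENSSSCG00000012727, located on chromosome X at 120361229 to 120399835) was at 35.6, 19.7 and 17.6 CPM in CON and at 17.0, 19.1 and 25.8 CPM in LPS replicates 1 to 3. The LPS libraries lay inside the CON range except LPS replicate 1, just below it. CON replicate 1 was the highest library, as it was for IGF2BP3. Its log2 fold change was -0.23 (SE 0.37, edgeR adjusted p = 0.828), and it was 0.15 without CON replicate 1.

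The spread within groups followed single libraries. LPS replicate 3 lay above the CON range for 6 of the 9 readers, LPS replicate 2 inside it for 6 and LPS replicate 1 inside it for 4. The shares of all tested genes in these positions were not computed, so these counts cannot be read as a trait of the readers. The readers' summed level was 919, 572 and 573 CPM in CON replicates 1, 2 and 3 and 611, 585 and 1049 CPM in the LPS replicates. HNRNPA2B1 supplied 618 CPM of the first and 676 CPM of the last of these sums.

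The 3 genes with the most similar pattern were sought for YTHDF1, YTHDF2 and IGF2BP2 among 8612 genes with a symbol and at least 5 CPM on average. The measure was Pearson's correlation of log2 CPM over 6 libraries, given as a description. Picking the highest of 8612 values over only 6 libraries favours values near 1, so these values do not show co-expression. CCDC86, CHST15 and EIF3D were most like YTHDF1, with 0.999, 0.995 and 0.993. EIF1, RALA and AP3D1 were most like YTHDF2, with 0.997, 0.997 and 0.996. RPF1, NUB1 and RYBP were most like IGF2BP2, with 0.998, 0.992 and 0.987.

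Genes that work with the readers, or are proposed readers themselves, gave no called member either, in lists written from general knowledge. With 0.0548% of all tested genes called, lists this short would seldom hold a called gene. Of 11 other proposed m6A readers 10 were tested, with 8 log2 fold changes above 0, 2 below 0 and a median of 0.23. G3BP1, a stress granule protein, had the smallest p of this list, with a log2 fold change of 0.72 (SE 0.37, edgeR adjusted p = 0.470). FXR2, a paralog of FMR1, had 0.38 (SE 0.32) and EIF3A, a translation initiation subunit, 0.41 (SE 0.40).

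The writers, which install m6A, had 7 of 9 tested log2 fold changes above 0 and a median of 0.47, higher than that of the readers, a difference that was not tested. WTAP, the adaptor of the methyltransferase complex, had 0.80 (SE 0.40, edgeR adjusted p = 0.455), ZC3H13 0.48 (SE 0.33) and RBM15 0.51 (SE 0.37). Of the erasers ALKBH5 had 0.67 (SE 0.38, edgeR adjusted p = 0.509) and FTO -0.33 (SE 0.32).

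Of the 10 CCR4-NOT genes, which encode the deadenylase recruited by YTHDF2, 6 were above 0 and 4 below 0, with a median log2 fold change of 0.07. CNOT10 had -0.54 (SE 0.35, edgeR adjusted p = 0.560), with all LPS libraries below all CON libraries, CNOT9 0.36 (SE 0.34) and CNOT11 -0.26 (SE 0.34). Of the 13 tested RNA decay partners of YTHDF2 and YTHDC2, 9 were above 0 and 4 below 0, with a median of 0.20. POP7, a subunit of RNase P and RNase MRP, had 0.74 (SE 0.32, edgeR adjusted p = 0.390), with all LPS libraries above all CON libraries. It was the 1 gene of these related lists with an unadjusted p below 0.05 in edgeR, beside 12.5% of all tested genes. RPP40, another subunit of RNase P and RNase MRP, had 0.87 (SE 0.41), and RIDA, which bridges YTHDF2 to them, -0.78 (SE 0.43, edgeR adjusted p = 0.493).

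The 8 splicing and export partners of YTHDC1 had 6 log2 fold changes above 0 and a median of 0.30, and the smallest p values belonged to SAFB at 0.37 (SE 0.32), SRSF7 at 0.59 (SE 0.52) and NXF1, the mRNA export receptor, at 0.31 (SE 0.33). The 13 tested hnRNP genes other than the readers had 5 above 0 and 8 below 0, with a median of -0.02. Among them HNRNPM had 0.56 (SE 0.33, edgeR adjusted p = 0.527), HNRNPU 0.33 (SE 0.30) and HNRNPR -0.22 (SE 0.31). The 10 partners of FMR1 and of the IGF2BP proteins had 7 above 0 and a median of 0.07. PABPC1, the cytoplasmic poly(A)-binding protein, had 0.59 (SE 0.34, edgeR adjusted p = 0.509), CYFIP2, a binding partner of the FMR1 protein, -0.70 (SE 0.46, edgeR adjusted p = 0.564), with all LPS libraries below all CON libraries, and SYNCRIP 0.52 (SE 0.39). CNOT10, POP7 and CYFIP2 were the only genes of the related lists whose groups did not overlap, beside 16.3% of all tested genes in either direction.

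The signs of these list medians depended on scaling in 3 lists besides the readers. With total counts the median turned to -0.06 for CCR4-NOT (4 of 10 above 0) and to -0.09 for the partners of FMR1 and of the IGF2BP proteins (4 of 10 above 0), and with RLE factors that of the other hnRNP genes turned to 0.02. The writers stayed at 0.26 and the other proposed readers at 0.10 under total counts. Relative to the median of all tested genes, which itself moved with the scaling, none of the 3 lists changed sign. With TMM and total counts CCR4-NOT stood at 0.07 and 0.06 on this basis. The partners of FMR1 and of the IGF2BP proteins stood at 0.06 and 0.03. The other hnRNP genes stood at -0.02 with TMM, -0.03 with RLE factors and -0.07 with total counts.

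**Figure D5:**
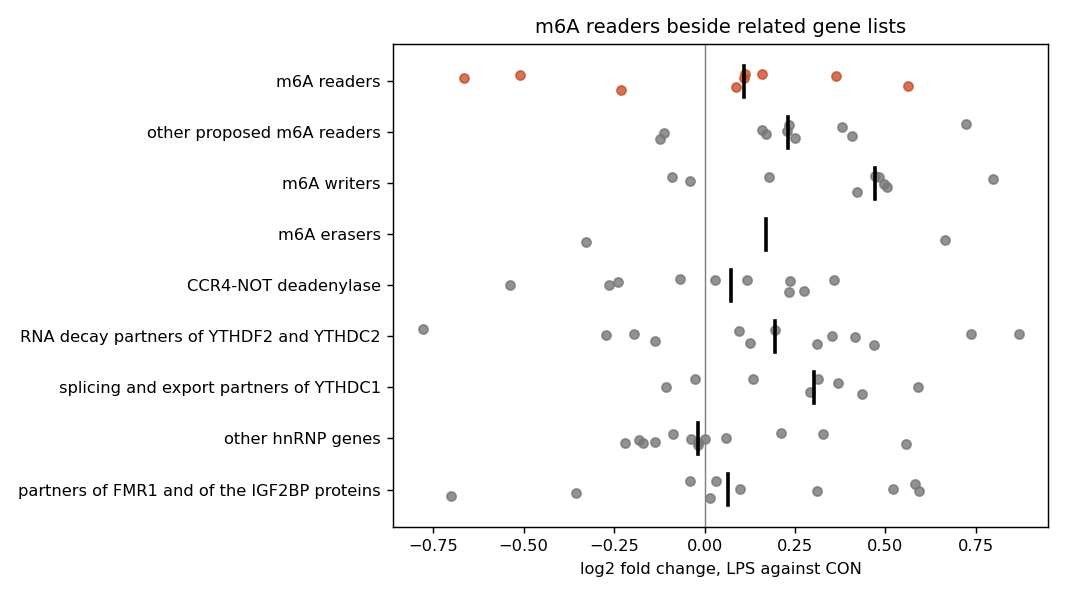
Log2 fold change (LPS against CON, x axis) of every tested gene in the reader set (red) and in 8 related lists (grey), with the list median as a black bar. The median was 0.11 for the readers and 0.47 for the writers, and no gene shown was called, beside 0.0548% of all tested genes.

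Of 12 neutrophil markers 8 had a row and 6 were tested, all with a log2 fold change above 0 and with a median of 2.37. The 1 that edgeR called, S100A8, stood at 0.312 to 0.396 CPM in the CON libraries and passed the filter only through the LPS libraries, and with any CON library left out, or with at least 10 counts required in every library, edgeR called 0 genes. The filter can be passed through high LPS libraries, which favours log2 fold changes above 0 among the 6 tested markers, so their count and median are a description only. The neutrophil marker rows, tested or not, had a summed level of 36.4 to 67.1 CPM in the CON libraries and 123 to 362 CPM in the LPS libraries. How far these cells contributed to the reader values was not tested. Of the other marker lists, the hepatocyte markers had 4 of 13 above 0 (median -0.31), the stellate cell and cholangiocyte markers 4 of 7 (median 0.24), and the red blood cell and platelet markers 3 of 3 (median 1.59).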

How the data were processed

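RNA-seq input libraries of piglet liver were analysed. The authors deposited raw counts of reads on 31908 Ensembl genes, with gene coordinates and exon lengths. The submitters' processing notes name cutadapt 1.9.3 and HISAT2, and the builds hg38 and galGal6, which are not pig builds. The counting program, the pig build, and the rules for strand and multi-mapping reads were not given in the sources used here. The labels list 2 sequencing entries for CON replicate 1 and 2 for CON replicate 2, each pair with 1 column. Columns left unmapped were 0. A name table gave symbols for 15029 identifiers. The m6A-IP libraries were not analysed here.

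The main test was edgeR 4.0.16 in R 4.3.3 (filterByExpr with a minimum count of 10, TMM, robust dispersions, glmQLFit and glmQLFTest). An SE was computed as |log2 fold change| over the root of the F statistic. DESeq2 1.42.0 and limma-voom (limma 3.58.1) were alternatives. Tested on simulated data for this comparison, with 200 of 12774 genes changed by 2 on the log2 scale, edgeR recovered 48% with 9 wrong calls. DESeq2 recovered 67% with 35 wrong calls and limma-voom 41.5% with 9. Changes as small as the edgeR estimates of the readers, -0.66 to 0.56, were not simulated, so these rates do not describe them. The lowest chi-square per gene between libraries was 48.6, so none was a repeat. Intervals from counts cover counting error only.

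The readers and lists were chosen with earlier results of these data known. All readers are named. Of each related list up to 3 genes with the smallest p are named, and for YTHDF1, YTHDF2 and IGF2BP2 the 3 genes most correlated with each. Of the marker lists ALB and S100A8, chosen after their values were seen, are named. GPNMB, MALSU1 and ENSSSCG00000034993 are named for their position. No protein, promoter or transcript sequence was used here.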

Additional observations from a re-analysis of the deposited data

How the results depend on the processing

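The count of 0 readers called by edgeR held under all alternatives, including DESeq2, limma-voom and no fold threshold or a threshold of 2, and no reader had an unadjusted p below 0.05 under any of the 13 refits. Over all tested genes, edgeR called 7 genes, but 12 with scaling to total counts, 885 without the filter, 0 with at least 10 counts in every library, 420 with DESeq2, and 0 to 982 with 1 library left out. YTHDF1, YTHDF2, YTHDC2 and IGF2BP3 kept their sign throughout. Scaling to total counts turned the log2 fold changes of YTHDF3 (-0.0908), YTHDC1 (-0.0263), IGF2BP2 (-0.14) and HNRNPA2B1 (-0.10). Relative to the median of all tested genes these were 0.03, 0.09, -0.02 and 0.02. With 1 library left out the ranges that crossed 0 were -0.17 to 0.27 for YTHDF3, -0.0891 to 0.32 for YTHDC1, -0.49 to 0.45 for IGF2BP2, -0.25 to 0.46 for HNRNPA2B1 and -0.41 to 0.15 for FMR1, and the readers' median ran from -0.25 without LPS replicate 3 to 0.27 without LPS replicate 2. The difference in the YTHDF2 share was 0.39 percentage points on raw counts and -2.78 to 0.47 with 1 library left out, the positive value without CON replicate 1. The cause of these reversals was not tested.

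The replicate numbers are shared between the groups, but same-numbered libraries did not deviate together (r = -0.24, 0.22 and 0.03 for numbers 1, 2 and 3), and only the 2 libraries numbered 2 matched their own number best. With the replicate number as a block edgeR called 51 genes and 0 readers, and IGF2BP2 took a log2 fold change of -0.0425. The YTHDF2 share difference of -1.11 percentage points cannot change with this block, because each number holds 1 library of each group. The lowest reader counts in any library were 11 for YTHDC2 in LPS replicate 1 and 19 for IGF2BP2 in LPS replicate 2, so relative counting error was widest there.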
